A study of Homo sapiens with 18 samples.

Results

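The genes described here are 31 direct targets of the transcription factor p53, listed by name, and the list was drawn up with earlier results of these data known. A probe was named for 28 of the 31, out of 12696 genes named on the array. Of these, 27 passed the filter on dim probes and were tested among 10697 genes. PLK2, a polo-like kinase, had a named probe but was detected on 1 array only and was not tested. No probe was named for BTG2, PHLDA3 or FDXR, and these 3 are not analysed here. Among the tested targets, 18 were detected on all 18 arrays, and 3 (FAS, PERP and GDF15) were undetected on all arrays of at least 1 group.

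Raji and DG75 are cell lines grown from Burkitt lymphoma, a tumour of B cells. The Epstein-Barr virus is present in Raji and absent from DG75. Cells received no compound, 50 µM Bay-11, which is used to stop phosphorylation of the NF-kB inhibitor IkB, or 75 µM TPCK, an alkylating inhibitor of serine proteases that is also used against NF-kB, and incubation lasted 1 h. RNA of each of the 6 groups was hybridised to 3 Illumina bead arrays. The 6 groups are thus untreated Raji, Raji with Bay-11, Raji with TPCK, untreated DG75, DG75 with Bay-11 and DG75 with TPCK. TPCK in DG75 is named by sample titles and column names but not by the series' design text, and the titles were followed. The labels do not say what the untreated wells received in place of the compounds, nor whether the 3 arrays of each group stem from independent cultures. P-values therefore reflect the spread between samples within groups, possibly a technical one, and precision is limited by having so few arrays. For each gene this spread was pooled over all 6 groups and moderated across genes, so it is not that of the compared groups alone. Each array reads the RNA of a whole culture, so fewer expressing cells and less RNA per cell cannot be told apart.

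p53 is activated after DNA damage and other stress, when its destruction by MDM2 slows, and it then raises transcription of genes that stop the cell cycle, repair DNA, adjust metabolism or drive cell death. MDM2 is itself a p53 target, which closes a feedback loop. Many of the same genes, CDKN1A and GADD45A among them, are also transcribed through p53-independent input.

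Arrays are named by the number that opens each column name. Controls are numbered 13 to 18 and treated arrays 1 to 12, so anything that goes with that numbering cannot be told apart from treatment. The number of detected probes ran from 13072 to 15903 per array, and the mean raw signal from 171.5 to 298.4, with the lowest range, 171.5 to 201.6, on Raji control arrays. Of 7 B cell markers, 5 had a named probe, and all 5 were detected on all 18 arrays. DG75 arrays 7 and 10 stood apart, and the DG75 Bay-11 arrays differed among themselves. On array 7, a TPCK array, 687 probes were detected that no other array detected, and the summed signal of fibroblast markers was 3488 against 81.3 to 192 on the other 17 arrays. Epithelial markers summed to 15590 there against 96.75 to 132.1 elsewhere, with 4 of 4 named fibroblast and 4 of 5 named epithelial markers detected. Most of the epithelial sum was SCGB2A2, at 13.87, with KRT19 at 9.15 and KRT8 at 5.50. EPCAM, at 5.33, lay within the range of the other arrays, and KRT18 was undetected at 4.27. On array 10, a Bay-11 array, 731 genes lay more than 1 log2 unit from the mean of the other two arrays of the group. For Bay-11 arrays 11 and 12 these genes numbered 390 and 350, with array 10 being part of the mean they were set against. On Raji and control arrays there were at most 58, on array 17. The part of arrays 7 and 10 in the DG75 values was not tested beyond leaving them out, singly or both, and weighting arrays by quality.

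Levels are log2 normalised signals of the brightest kept probe of each gene, and changes are differences of these levels with their standard error (SE). A gene was called when its p from limma, adjusted by the Benjamini-Hochberg method over all 10697 genes, was under 0.05. The arrays in each group number 3.

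Promoters are shown for 4 of the 5 targets that fell in Raji after Bay-11, because these are the members that moved together. The sequences are those of RefSeq on GRCh38.p14 and run from 250 bases before to 50 bases after an annotated start, 300 bases in all. Capitals mark matches to the p53 half-site consensus or to CCAAT, searched on both strands. The table of promoters used here has no entry for GADD45A.
CDKN1A, chr6:36678464-36678763, + strand: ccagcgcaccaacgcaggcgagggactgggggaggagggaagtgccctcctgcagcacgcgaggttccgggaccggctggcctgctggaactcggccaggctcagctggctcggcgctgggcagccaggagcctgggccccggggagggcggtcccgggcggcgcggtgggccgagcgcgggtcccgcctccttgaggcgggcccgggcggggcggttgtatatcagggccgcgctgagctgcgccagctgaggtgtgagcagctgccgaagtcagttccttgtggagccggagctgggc
FAS, chr10:88991181-88991480, + strand: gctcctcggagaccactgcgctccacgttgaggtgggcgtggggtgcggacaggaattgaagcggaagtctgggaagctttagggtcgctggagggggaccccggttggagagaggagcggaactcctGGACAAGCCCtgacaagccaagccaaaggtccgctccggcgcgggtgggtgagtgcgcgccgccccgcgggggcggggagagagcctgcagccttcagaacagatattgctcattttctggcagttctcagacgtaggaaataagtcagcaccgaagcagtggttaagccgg
AEN, chr15:88621090-88621389, + strand: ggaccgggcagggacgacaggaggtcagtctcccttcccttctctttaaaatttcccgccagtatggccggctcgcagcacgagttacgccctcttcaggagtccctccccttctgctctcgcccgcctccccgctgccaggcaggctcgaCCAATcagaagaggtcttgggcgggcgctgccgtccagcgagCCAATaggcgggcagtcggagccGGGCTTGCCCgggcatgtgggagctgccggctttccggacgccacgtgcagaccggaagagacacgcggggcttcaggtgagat
TRIAP1, chr12:120446335-120446634, - strand: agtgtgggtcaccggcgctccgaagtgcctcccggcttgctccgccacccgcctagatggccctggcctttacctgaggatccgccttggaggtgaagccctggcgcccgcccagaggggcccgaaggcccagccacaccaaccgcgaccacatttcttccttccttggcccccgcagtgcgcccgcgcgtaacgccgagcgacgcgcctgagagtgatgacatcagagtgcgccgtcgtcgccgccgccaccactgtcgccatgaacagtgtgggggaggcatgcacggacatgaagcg

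A p53 half-site match began 122 bases before the start of FAS shown above and 34 bases before the start of AEN. AEN also held CCAAT at 99 and 57 bases before its start, and these matches did not overlap the half-site. The windows of the other 2 annotated FAS starts held no half-site. The CDKN1A and TRIAP1 windows held no match to the half-site, to CCAAT or to TATAAA, which says only that these letters are not in these windows. Across 26 members with an entry, 8 (30.8%) held a half-site in at least 1 window, namely PLK2, FAS, AEN, EI24, RPS27L, DDB2, SESN1 and FDXR. The share over all 27305 genes with an entry was 8.06%. For CCAAT the shares were 50% of the members and 39.7% of all genes, and for TATAAA 3.85% and 14%. The median GC content was 67% in the members' windows and 58.7% in all windows. A match is a description of letters and not a binding site.

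After Bay-11, 5 p53 targets fell in Raji. These were GADD45A and CDKN1A, which restrain the cell cycle, and FAS, AEN and TRIAP1, which act in cell death and survival. Their signals fell by between 1.57-fold and 2.01-fold within 1 h, and no p53 target rose past the threshold. Of the 27 targets 18.5% were called, against 1.51% of all genes (0.626% lower and 0.879% higher). The median change of the 27 was -0.23 and that of all genes 0.01, and 18 of the 27 had a negative change. An unadjusted p under 0.05 was found for 11 targets, 10 lower and 1 higher, where the share over all genes was 18.8%.

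CDKN1A encodes p21, an inhibitor of cyclin-dependent kinases. Its level was 10.25, 10.40 and 10.01 on Raji control arrays 16, 17 and 18, and 9.32, 9.19 and 9.47 on Bay-11 arrays 4, 5 and 6. All 3 treated arrays lay below all 3 controls, and the change was -0.89 ± 0.13 (adjusted p = 0.00487 with limma, 1.86-fold lower). GADD45A, a stress protein that binds cyclin-dependent kinase 1 and PCNA, stood at 9.57, 9.49 and 9.44 on controls and at 8.42, 8.55 and 8.52 after Bay-11. The groups were about 1 log2 unit apart with narrow spread, a change of -1.01 ± 0.15 (adjusted p = 0.00487 with limma, 2.01-fold lower). A second GADD45A probe gave -0.93 ± 0.15 (adjusted p = 0.00727 with limma, over all kept probes).

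AEN encodes an exonuclease that takes part in apoptotic DNA breakdown. It read 10.11, 10.08 and 10.19 on controls and 9.44, 9.34 and 9.41 after Bay-11, with no overlap. AEN changed by -0.73 ± 0.11 (adjusted p = 0.00487 with limma). The death receptor gene FAS had levels of 7.17, 7.09 and 7.20 on controls and 6.27, 6.51 and 6.39 after Bay-11, again without overlap. FAS changed by -0.76 ± 0.14 (adjusted p = 0.0175 with limma). TRIAP1, a small mitochondrial protein that counters apoptosis, lay at 9.13, 9.17 and 9.04 on controls and at 8.52, 8.37 and 8.50 after Bay-11. Its change was -0.65 ± 0.12 (adjusted p = 0.0175 with limma), and its groups did not overlap either. The 3 changes in this role thus include a death receptor, an apoptotic nuclease and an inhibitor of apoptosis.

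**Figure D1:**
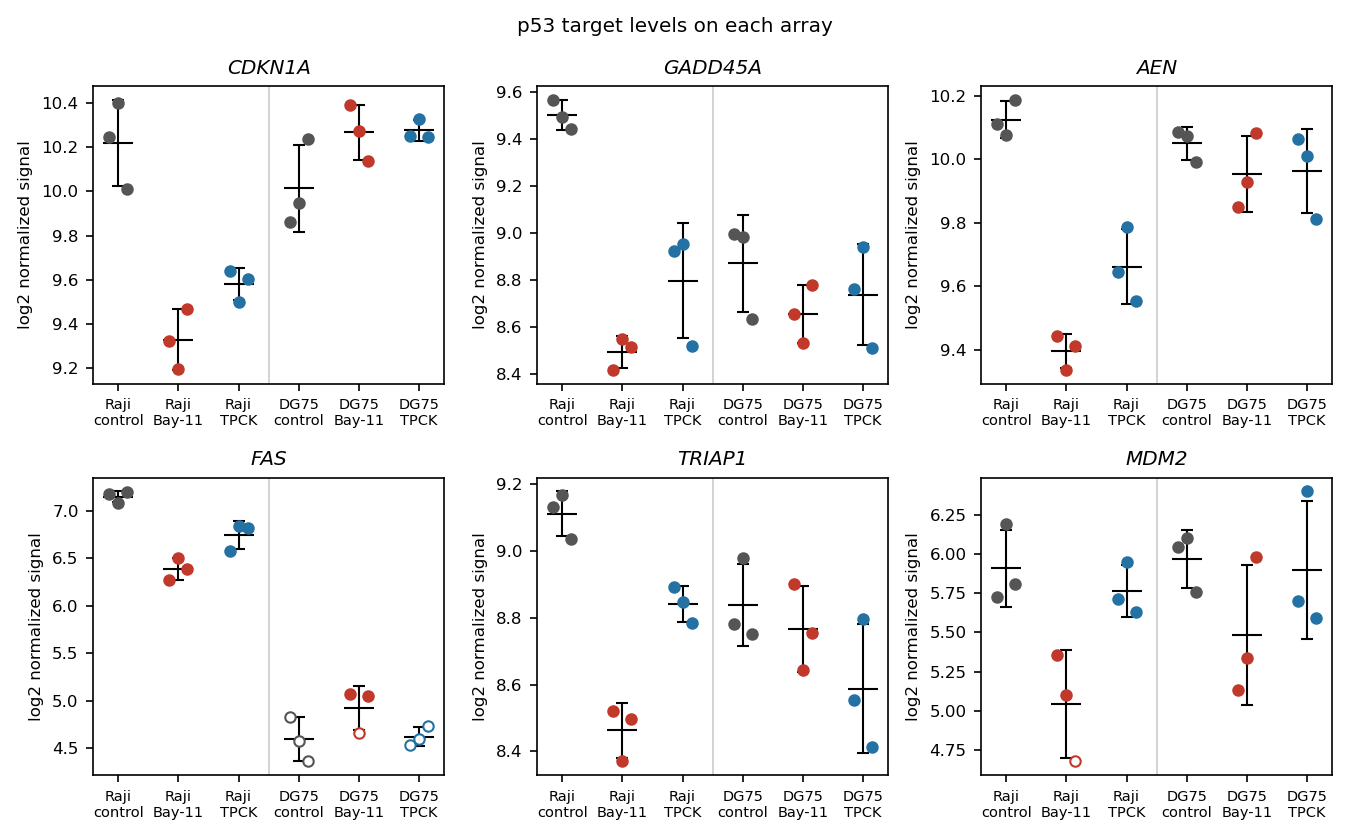
Log2 normalised signal (vertical axis) of CDKN1A, GADD45A, AEN, FAS, TRIAP1 and MDM2 on each array, by group; bars are mean ± SD of 3 arrays and open points are arrays on which the probe was not detected. The Raji Bay-11 points of the first 5 genes lie below all Raji control points, while CDKN1A in DG75 stays between 9.86 and 10.39.

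CDKN1A, GADD45A and AEN kept their call in Raji after Bay-11 when any 1 array of the comparison was left out, the highest adjusted p being 0.0326, 0.036 and 0.036. FAS passed only without array 5 and TRIAP1 in 2 of 6 such fits, with highest adjusted p of 0.0818 and 0.0742. With each array centred on its median in place of quantile normalization, CDKN1A, GADD45A and AEN passed and FAS and TRIAP1 did not. Without normalization between arrays no p53 target was called in this comparison, where 640 of all 10697 genes were. The median of all genes then stood at 0.39 and that of the targets at 0.11.

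**Figure D2:**
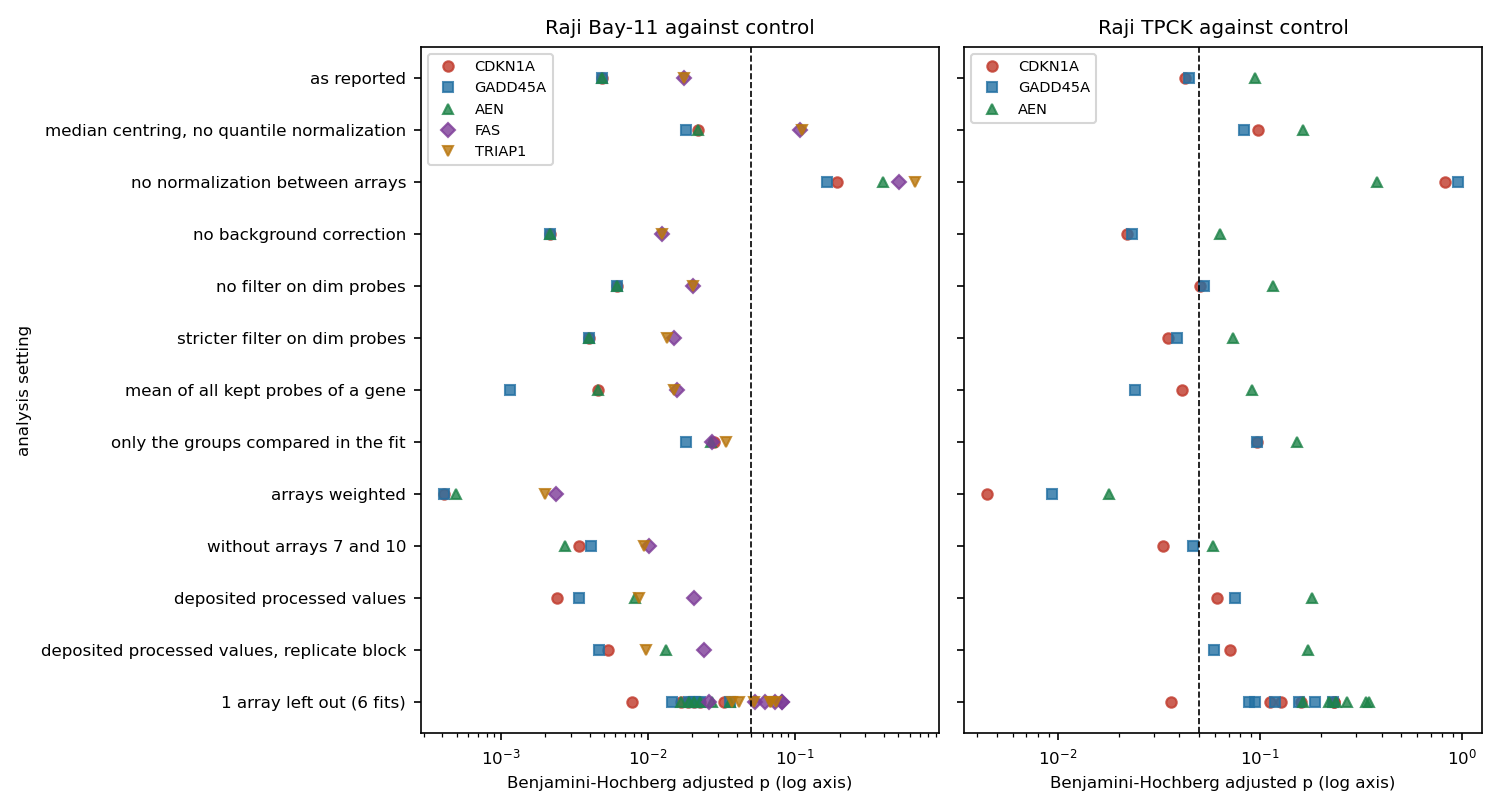
Adjusted p (horizontal log axis, limma) of the named targets under each analysis setting (vertical axis), for Raji Bay-11 on the left and Raji TPCK on the right; the dashed line marks 0.05 and the lowest row holds the 6 fits that leave out 1 array. In the Bay-11 panel CDKN1A, GADD45A and AEN stay left of the line in all 6 of those fits, and in the same fits of the TPCK panel GADD45A stays right of it.

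Both feedback genes had lower values after Bay-11 in Raji without passing the threshold. MDM2, the ubiquitin ligase that degrades p53, had levels of 5.72, 6.19 and 5.81 on controls and 5.35, 5.10 and 4.68 after Bay-11, the last of these undetected. The groups did not overlap, and the change was -0.86 ± 0.24 (adjusted p = 0.0875 with limma). PPM1D, the phosphatase WIP1 that dampens p53 and its kinases, read 7.51, 7.59 and 7.91 on controls and 7.04, 7.16 and 6.28 after Bay-11. Its change was -0.84 ± 0.24 (adjusted p = 0.0873 with limma), also without overlap. Without arrays 7 and 10, neither of which is a Raji array but both of which enter the shared spread, MDM2 and PPM1D passed at adjusted p of 0.0458 and 0.044 (limma).

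Counting overlap alone, 12 of the 27 targets were lower on all 3 Bay-11 arrays than on all 3 Raji controls, and 2 were higher. Over all genes the shares were 14.2% and 16.8%. Beside the 5 called genes and the feedback pair, the 12 were BAX, RPS27L, SESN1, TIGAR and ZMAT3. SESN1, a stress-induced regulator of mTORC1 and redox state, had a change of -0.61 ± 0.22 (adjusted p = 0.165 with limma), and TIGAR, a fructose bisphosphatase that restrains glycolysis, of -0.42 ± 0.14 (adjusted p = 0.142 with limma). BAX, the pore-forming death effector, had -0.73 ± 0.37, but a second BAX probe had -0.05 ± 0.19. For ZMAT3 the probe used had -0.23 ± 0.12 and the other kept probes 0.15 and 0.48, so its direction depends on the probe. The 2 higher genes were TP53I3, an oxidoreductase, at 0.45 ± 0.18 (adjusted p = 0.196 with limma) and PLXNB2, a semaphorin receptor, at 0.46 ± 0.22 (adjusted p = 0.27 with limma). None of the 4 repair genes XPC, DDB2, RRM2B and POLH was called by limma, 0 had an unadjusted p under 0.05, and their median change was -0.13.

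After TPCK, 2 of those targets fell in Raji, CDKN1A and GADD45A. The share of the 27 targets called was 7.41%, against 0.439% of all genes (0.206% lower, 0.234% higher). At an unadjusted p under 0.05 there were 7 targets, all lower, where the share over all genes was 6.61%. CDKN1A lay at 9.64, 9.50 and 9.60 on TPCK arrays 1, 2 and 3, below all controls, a change of -0.64 ± 0.13 (adjusted p = 0.0424 with limma, 1.56-fold lower). GADD45A lay at 8.92, 8.95 and 8.52, also below all controls, and changed by -0.70 ± 0.15 (adjusted p = 0.0448 with limma, 1.63-fold lower). Both calls stood close to the threshold. Leaving out 1 array ended the GADD45A call in all 6 fits and the CDKN1A call in all but the fit without array 18, with adjusted p of up to 0.23 and 0.233. Neither passed with median centring, without the filter on dim probes, with only Raji TPCK and control arrays in the fit, or in the deposited processed table. The second GADD45A probe had -0.56 ± 0.15 (adjusted p = 0.196 with limma). With no normalization between arrays the changes of CDKN1A and GADD45A were 0.06 and 0.01, on the other side of 0, where the median of all genes was 0.66. Relative to that median both were lower. All 20 targets with a negative value after TPCK in Raji, FAS, TRIAP1, AEN and ZMAT3 among them, had a positive one without normalization. After Bay-11 the 5 called targets stayed negative there, while 6 of the 18 negative values turned positive.

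The other targets that fell after Bay-11 had negative values after TPCK that did not pass. AEN read 9.65, 9.79 and 9.55 on the TPCK arrays, below its controls, with a change of -0.46 ± 0.11 (adjusted p = 0.0951 with limma). FAS read 6.58, 6.84 and 6.82, with -0.41 ± 0.14 (adjusted p = 0.467 with limma), and TRIAP1 read 8.89, 8.85 and 8.78, with -0.27 ± 0.12 (adjusted p = 0.664 with limma). Both lay below all controls as well. MDM2 stood at 5.71, 5.95 and 5.63, overlapping its controls, and its difference was -0.14 ± 0.24 (adjusted p = 0.999 with limma). ZMAT3, an RNA-binding zinc finger protein, read 10.05, 10.19 and 9.98 against 10.62, 10.59 and 10.42 on controls, a difference of -0.47 ± 0.12 (adjusted p = 0.162 with limma), while its other kept probes had -0.10 and 0.09. In all, 8 targets were lower and 1 was higher without overlap, where 6.46% and 9.46% of all genes were. The Bay-11 and TPCK comparisons share the 3 Raji controls, so their values stand side by side and are not independent of each other.

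TPCK and Bay-11 arrays of Raji were also compared directly, which needs no control array. No target was called with limma, against 0.271% of all genes (0.15% lower, 0.122% higher). At an unadjusted p under 0.05 there were 7 targets, 6 with higher values on TPCK arrays and 1 lower, and the share over all genes was 13.4%. MDM2 had the greatest difference of the 27 at 0.72 ± 0.24 (adjusted p = 0.233 with limma), with all 3 TPCK arrays above all 3 Bay-11 arrays. TRIAP1 differed by 0.38 ± 0.12 (adjusted p = 0.207 with limma) and PLXNB2 by -0.62 ± 0.22 (adjusted p = 0.257 with limma). Without overlap, 8 targets were higher and 2 lower on TPCK arrays, where 12.9% of all genes were in each direction.

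**Figure D3:**
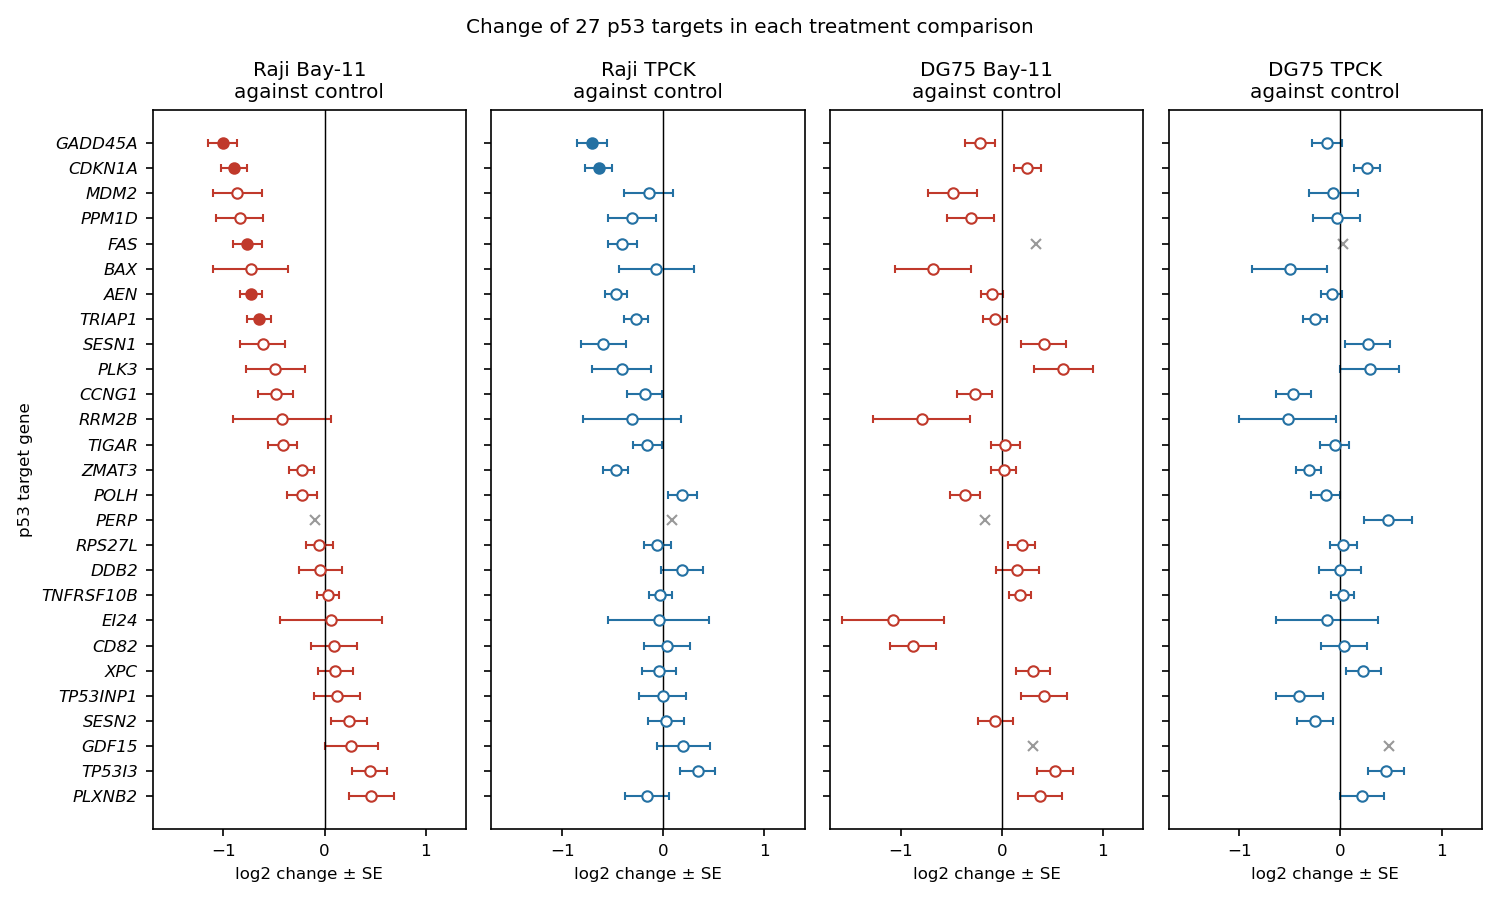
Log2 change ± SE (horizontal axis) of the 27 tested p53 targets (vertical axis) in the 4 treatment comparisons; filled points are called, and grey crosses are genes undetected on all arrays of 1 or both groups. Filled points appear only in the Raji panels, 5 for Bay-11 and 2 for TPCK, and all of them lie below 0.

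In DG75 no p53 target was called after Bay-11, while 0.617% of all genes were (0.178% lower, 0.439% higher). At an unadjusted p under 0.05 limma gave 5 targets, 3 lower and 2 higher, where the share over all genes was 18.9%. The median change of the targets was 0.02 and that of all genes 0.05. CDKN1A read 9.86, 9.95 and 10.24 on DG75 control arrays 13, 14 and 15 and 10.39, 10.27 and 10.14 on Bay-11 arrays 10, 11 and 12. These groups overlapped, and the difference of 0.25 had a 95% interval from -0.02 to 0.53. GADD45A read 9.0, 8.98 and 8.63 on controls and 8.66, 8.53 and 8.78 after Bay-11, which overlapped too, with a difference of -0.21 and an interval from -0.52 to 0.10. The second GADD45A probe had 0.21 ± 0.15 (adjusted p = 0.468 with limma), so the sign depends on the probe.

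AEN stood at 10.09, 10.07 and 9.99 on DG75 controls and at 9.85, 9.93 and 10.08 after Bay-11, with an interval of the difference from -0.33 to 0.13. TRIAP1 stood at 8.78, 8.98 and 8.75 and then at 8.90, 8.64 and 8.75, with an interval from -0.32 to 0.18. MDM2 stood at 6.04, 6.10 and 5.75 and then at 5.13, 5.33 and 5.98, groups that overlapped through array 12. FAS was undetected on all 3 DG75 controls and was detected on 2 of 3 Bay-11 arrays at 5.07 and 5.05, with 4.66 on the array that did not detect it, so that a fall of the size seen in Raji could not have been measured.

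CD82, a tetraspanin of the cell surface, had levels of 6.36, 6.35 and 6.52 on DG75 controls and 4.77, 5.63 and 6.19 after Bay-11, the first of these undetected. Its difference was -0.88 ± 0.23 (adjusted p = 0.0846 with limma) with no overlap. It was -0.49 without array 10 and, with a call, -1.21 without array 12 (adjusted p = 0.00464 with limma), while a second CD82 probe had -0.26 ± 0.25. EI24, a protein of the endoplasmic reticulum, lay at 6.0 on array 10 and between 8.86 and 9.55 on the other 17 arrays. Its difference was -1.08 ± 0.50, and -0.09 without array 10. RRM2B, a subunit of ribonucleotide reductase, lay at 6.06 on array 10 and at 8.21 and 7.93 on the other two arrays of the group, while a second probe for it had a difference of -0.14 ± 0.17. These 3 targets were the ones that lay more than 1 log2 unit from the rest of their group on array 10. Counting overlap alone, CD82 and POLH, a polymerase that copies past damage, were lower and PLK3 and TP53I3 higher, 2 each way, where 6.54% and 12.7% of all genes were.

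After TPCK in DG75 no p53 target was called either, against 0.495% of all genes (0.327% lower, 0.168% higher). At an unadjusted p under 0.05 limma gave 3 targets, 2 lower and 1 higher, where the share over all genes was 11.5%. CDKN1A lay at 10.25, 10.33 and 10.25 on TPCK arrays 7, 8 and 9, all above the DG75 controls, with a difference of 0.26 and an interval from -0.02 to 0.54. GADD45A lay at 8.76, 8.94 and 8.51 and overlapped its controls, with an interval of the difference from -0.44 to 0.18. Its second probe had 0.29 ± 0.15 (adjusted p = 0.548 with limma), where the probe used had -0.13. RRM2B had -0.52 on the probe used, which read 7.12, 7.12 and 8.77 after TPCK. Its second probe had -0.73 ± 0.17 (adjusted p = 0.083 with limma, over all kept probes). That probe read 7.06, 7.24 and 7.26 on controls and 6.36, 6.52 and 6.49 after TPCK, without overlap. AEN read 10.06, 10.01 and 9.81, TRIAP1 8.55, 8.80 and 8.41 and MDM2 5.70, 6.40 and 5.59, each overlapping its controls, and FAS was undetected on all 3 arrays at 4.53, 4.59 and 4.73. CCNG1, the cyclin G1 that helps phosphatase 2A to act on MDM2, read 10.17, 10.31 and 10.06 on controls and 10.03, 9.70 and 9.42 after TPCK. Its difference was -0.46 ± 0.18 (adjusted p = 0.317 with limma) with no overlap. ZMAT3 differed by -0.32 ± 0.12 (adjusted p = 0.329 with limma), also without overlap. These were the 2 targets lower without overlap, and CDKN1A, TP53I3 and XPC were the 3 higher ones, where 8.81% and 8.65% of all genes were. Array 7, on which fibroblast and some epithelial markers were high, held the highest values of its group for PERP, a desmosome protein, at 5.52 and for GDF15, a secreted cytokine, at 5.87, while PERP was undetected on array 8 and GDF15 on arrays 8 and 9. Without arrays 7 and 10, the comparison still called no target. No target was called between TPCK and Bay-11 in DG75, where 0.187% of all genes were (0.159% lower, 0.028% higher) and 5 targets, 3 lower and 2 higher, had an unadjusted p under 0.05 with limma, against 10.6% of all genes. CD82 differed by 0.92 ± 0.23 (adjusted p = 0.2 with limma), but its second probe by -0.06 ± 0.25, and TP53INP1, an inducer of autophagy, by -0.82 ± 0.23 (adjusted p = 0.297 with limma). ZMAT3 was the 1 target lower without overlap and CD82 the 1 higher, where 7.25% and 2.66% of all genes were. Both rest on 1 probe, since the other ZMAT3 probes had 1.20 and 0.06.

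TP53I3 had higher levels without overlap in all 4 treatment comparisons. Of all genes, 16.8% and 9.46% were higher without overlap after Bay-11 and TPCK in Raji, and 12.7% and 8.65% in DG75. The share of genes higher in all 4 at once was not counted. On Raji arrays it read 5.57, 5.36 and 5.15 untreated, 5.86, 5.88 and 5.68 after Bay-11 and 5.69, 5.77 and 5.65 after TPCK. On DG75 arrays it read 5.30, 5.38 and 5.17 untreated, 6.26, 5.65 and 5.53 after Bay-11 and 6.02, 5.69 and 5.50 after TPCK. The differences from control ran from 0.34 to 0.53, and none passed the threshold (adjusted p from 0.151 to 0.812 with limma). It was called as higher in Raji after Bay-11 with weighted arrays, without arrays 7 and 10 and in the deposited processed table, in Raji after TPCK without normalization, and in DG75 after Bay-11 without array 12. Many genes were called higher in these settings, 678 of 10697 with weighted arrays and 300 of 10524 without arrays 7 and 10. The deposited table had 1613 of 8582, Raji TPCK without normalization 5053 of 10697, and DG75 Bay-11 without array 12 had 746 of 10675. Both treatments of a line share its controls. All of these levels are dim.

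Whether the lines differed in their response was tested as the difference of the changes, DG75 minus Raji. For Bay-11 no target and no gene was called with limma. At an unadjusted p under 0.05 there were 9 targets, 8 positive and 1 negative, and the share over all genes was 6.47%. CDKN1A had the greatest value, 1.15 ± 0.19 (adjusted p = 0.104 with limma), with an interval from 0.75 to 1.54, and FAS, undetected on DG75 controls, had 1.10 ± 0.20 (adjusted p = 0.104 with limma). GADD45A had 0.79 ± 0.21 (adjusted p = 0.494 with limma), AEN 0.63 ± 0.15 (adjusted p = 0.421 with limma) and TRIAP1 0.58 ± 0.17 (adjusted p = 0.518 with limma). On the second GADD45A probe the value was 1.15 ± 0.21 (adjusted p = 0.0842 with limma, over all kept probes). The adjusted p for CDKN1A was 0.0442 without background correction and 0.0108 with arrays weighted by their quality. A fall in Raji that was called and a DG75 change that was not are therefore not shown to differ at the threshold used.

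For TPCK again no target and no gene was called, and 5 targets had an unadjusted p under 0.05, all positive, where the share over all genes was 5.56%. CDKN1A stood at 0.90 ± 0.19 (adjusted p = 0.281 with limma), SESN1 at 0.86 ± 0.32 and GADD45A at 0.57 ± 0.21 (adjusted p = 0.853 with limma for both). On the second GADD45A probe the value was 0.84 ± 0.21 (adjusted p = 0.643 with limma, over all kept probes).

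**Figure D4:**
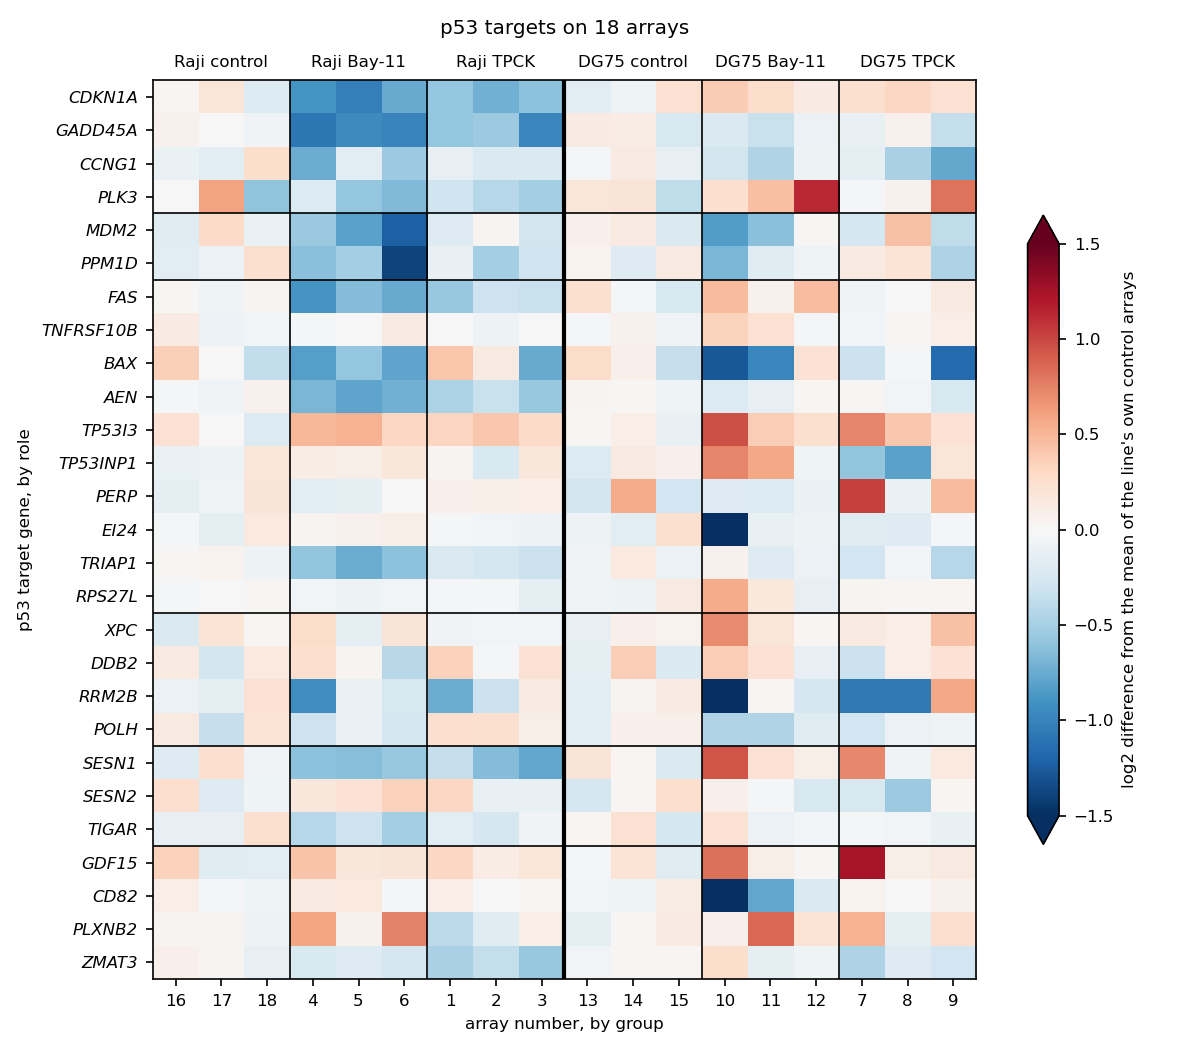
Difference of each of the 27 tested targets (rows, by role) on each of 18 arrays (columns, by group) from the mean of the same line's control arrays, in log2 units, with the colour scale ending at -1.5 and 1.5. The low values of CDKN1A, GADD45A, AEN, FAS and TRIAP1 stand in the Raji treatment columns, and the low EI24, RRM2B and CD82 values stand in the column of array 10.

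Without treatment the lines differed in 11 of the 27 targets, of which 8 were lower and 3 higher in DG75. This is 40.7% of the targets, close to the 38.9% of all genes that differed (18.2% lower, 20.7% higher). The lower genes were FAS and BAX of the death genes, TIGAR and SESN1 of metabolism, CD82 and PLXNB2 of the cell surface, GADD45A and DDB2. The higher ones were TP53INP1, the TRAIL receptor gene TNFRSF10B and ZMAT3. CDKN1A, MDM2 and AEN had similar means, with differences of -0.21, 0.06 and -0.07 that were not called. RRM2B was not called on the probe used, at 0.17. Its second probe went the other way, at -0.54 ± 0.17 (adjusted p = 0.0202 with limma, over all kept probes). There were 12 targets with an unadjusted p under 0.05, where the share over all genes was 46.7%. Signals of other cell types also differed between the lines: T or NK cell markers summed to 249.5 to 287.7 on Raji controls and 79.57 to 83.06 on DG75 controls, with 3 of 5 named, 2 of them detected in Raji and 1 in DG75. Fibroblast markers summed to 167.4 to 177.4 and 81.41 to 94.78, with 4 of 4 named and at most 1 detected, and monocyte markers to 194.4 to 264.5 and 96.74 to 134.9, with 3 of 4 named and 2 or 3 detected. Within these lists CD3D, NKG7, CSF1R and COL1A1 were detected on Raji controls and not on DG75 controls. CD7 went the other way, at 4.53, 5.15 and 4.64 on Raji controls, all undetected, and 5.27, 5.33 and 5.28 on DG75 controls. LYZ read 4.98, 5.88 and 5.15 on Raji controls and 5.45, 6.24 and 5.88 on DG75 controls. The part of these markers in the differences between the lines was not tested.

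CD82 was far lower in DG75. It read 9.11, 8.98 and 8.94 on Raji controls against 6.36, 6.35 and 6.52 on DG75 controls, 6.06-fold lower in DG75 (-2.60 ± 0.23, adjusted p = 8.53e-08 with limma). A second CD82 probe had -1.79. FAS averaged 7.15 in Raji and 4.59 in DG75, where it read 4.83, 4.58 and 4.37 and was undetected on all 3 controls, so that Raji was at least 4.31-fold higher (adjusted p = 2.93e-10 with limma). This bound sets the Raji mean against the higher, per DG75 array, of the FAS signal and the lowest signal of a detected probe.

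TIGAR lay at 9.67, 9.67 and 10.04 in Raji and at 8.18, 8.39 and 7.89 in DG75, 3.12-fold lower (-1.64 ± 0.14, adjusted p = 7.17e-08 with limma). SESN1 lay at 8.53, 8.97 and 8.67 against 7.91, 7.75 and 7.51 (-0.99 ± 0.22, adjusted p = 0.00185 with limma). Neither gene's groups overlapped. BAX lay at 8.38, 8.02 and 7.65 against 7.09, 6.90 and 6.48 (-1.19 ± 0.37, adjusted p = 0.0171 with limma). DDB2, which recognises ultraviolet damage, lay at 6.01, 5.59 and 6.01 against 4.97, 5.49 and 4.90, and only array 14 of the DG75 controls detected it (-0.75 ± 0.21, adjusted p = 0.00944 with limma). PLXNB2 lay at 7.69, 7.70 and 7.57 against 6.82, 6.98 and 7.11 (-0.68 ± 0.22, adjusted p = 0.0207 with limma). These 3 also showed no overlap. GADD45A, whose control values are given above, differed by -0.63 ± 0.15 (adjusted p = 0.00241 with limma). On this probe its Raji level after Bay-11 was below its untreated level in DG75. On the second probe, where the untreated lines differed by -0.89 ± 0.15, those levels overlapped. They were 7.36, 7.41 and 7.24 in Raji after Bay-11 and 7.48, 7.32 and 7.36 in untreated DG75.

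TP53INP1 read 5.33, 5.36 and 5.62 in Raji and 7.33, 7.67 and 7.61 in DG75, 4.28-fold higher in DG75 (2.10 ± 0.23, adjusted p = 1.24e-06 with limma). TNFRSF10B read 9.25, 9.04 and 9.09 in Raji and 10.27, 10.36 and 10.24 in DG75, 2.24-fold higher (1.16 ± 0.11, adjusted p = 2.72e-07 with limma). Second probes had 2.42 for TP53INP1 and 0.79 for TNFRSF10B, in the same direction. ZMAT3 read 10.62, 10.59 and 10.42 in Raji and 10.83, 10.88 and 10.90 in DG75 (0.32 ± 0.12, adjusted p = 0.0445 with limma). Its other kept probes had -0.28 and -0.66, so the direction of ZMAT3 depends on the probe, and it passed in 0 of 6 fits with 1 array left out. BAX passed in 4 of those 6 fits and PLXNB2 in 3, and the other 8 called targets passed in all 6. Without overlap, 9 targets were lower and 4 higher in DG75, against 26.1% and 29.4% of all genes.

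**Figure D5:**
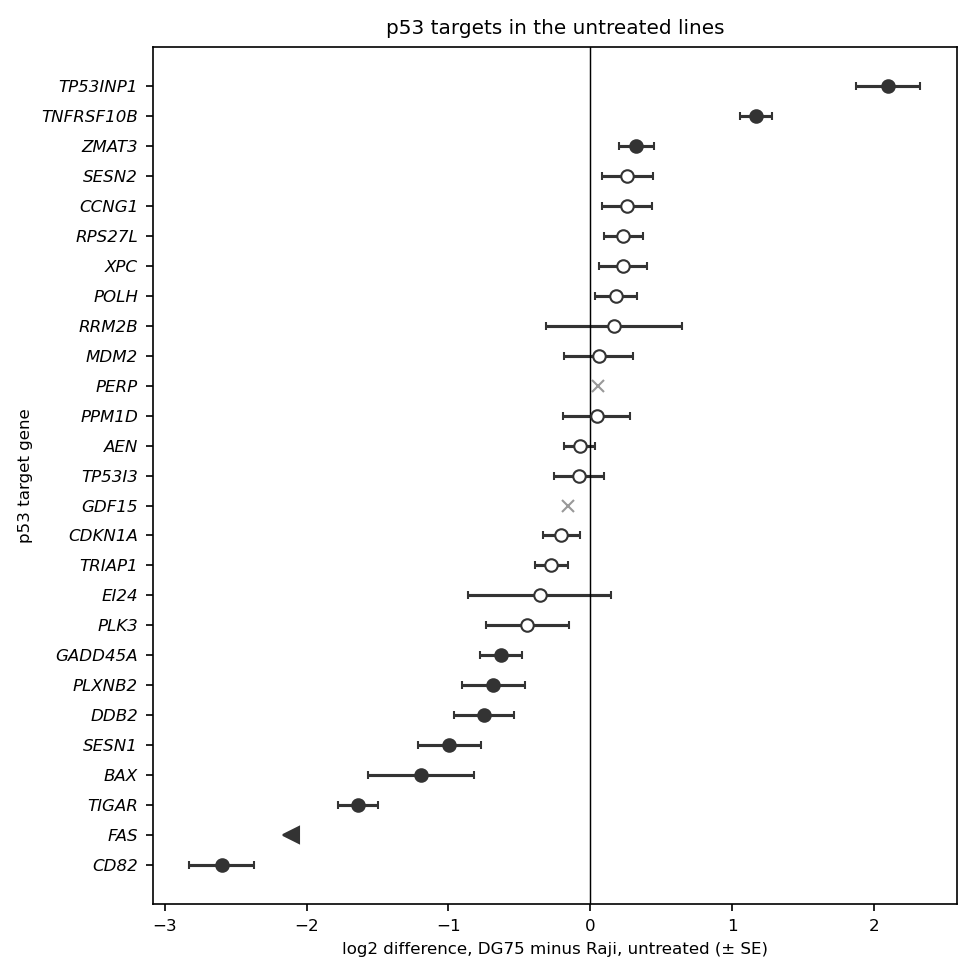
Log2 difference, untreated DG75 minus untreated Raji, ± SE (horizontal axis) for the 27 tested p53 targets (vertical axis); filled points are called, the triangle marks the bound for FAS, undetected in DG75, and grey crosses are GDF15 and PERP, undetected in 1 line. CD82 lies at -2.60 and TIGAR at -1.64 on the left, and TP53INP1 at 2.10 and TNFRSF10B at 1.16 farthest to the right.

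The treated levels of the targets that separated the untreated lines showed the same order of the lines for most of them. The means of GADD45A and SESN1 after Bay-11 did not. TIGAR read 9.36, 9.49 and 9.29 after Bay-11 and 9.63, 9.54 and 9.74 after TPCK in Raji, and 8.38, 8.07 and 8.12 and then 8.13, 8.12 and 8.05 in DG75. CD82 read 9.15, 9.16 and 9.0 after Bay-11 and 9.11, 9.01 and 9.04 after TPCK in Raji, and 6.46, 6.40 and 6.48 after TPCK in DG75. For both genes every Raji array lay above every DG75 array.

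TNFRSF10B read 9.11, 9.13 and 9.26 after Bay-11 and 9.13, 9.05 and 9.12 after TPCK in Raji, and 10.63, 10.52 and 10.27 and then 10.25, 10.31 and 10.39 in DG75. TP53INP1 read 5.55, 5.53 and 5.61 and then 5.48, 5.21 and 5.61 in Raji, and 8.26, 8.11 and 7.47 and then 6.94, 6.74 and 7.72 in DG75. Here every DG75 array lay above every Raji array.

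BAX read 7.20, 7.43 and 7.23 after Bay-11 and 8.43, 8.15 and 7.26 after TPCK in Raji, and 5.55, 5.84 and 7.04 and then 6.51, 6.80 and 5.65 in DG75. DDB2 read 6.12, 5.91 and 5.46 and then 6.22, 5.86 and 6.10 in Raji, and 5.49, 5.33 and 5.0 and then 4.80, 5.22 and 5.33 in DG75, where array 12 and array 7 did not detect it. Within each treatment BAX was lower on all DG75 arrays than on all Raji arrays, and DDB2 overlapped between the lines after Bay-11 only.

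PLXNB2 read 8.24, 7.72 and 8.39 after Bay-11 and 7.26, 7.47 and 7.76 after TPCK in Raji, and 7.05, 7.83 and 7.17 and then 7.50, 6.83 and 7.23 in DG75. SESN1 read 8.10, 8.08 and 8.15 and then 8.37, 8.07 and 7.94 in Raji, and 8.67, 7.94 and 7.81 and then 8.44, 7.67 and 7.87 in DG75. The lines overlapped for both genes under either treatment, and SESN1 averaged 8.11 in Raji and 8.14 in DG75 after Bay-11. GADD45A, with values given above, overlapped between the lines under either treatment too. It averaged 8.49 in Raji and 8.66 in DG75 after Bay-11, and 8.80 and 8.74 after TPCK. On its second probe the Bay-11 arrays read 7.36, 7.41 and 7.24 in Raji and 7.73, 7.67 and 7.39 in DG75. ZMAT3 read 10.31, 10.35 and 10.29 after Bay-11 in Raji, and 11.13, 10.72 and 10.80 after Bay-11 and 10.41, 10.67 and 10.58 after TPCK in DG75, above Raji under either treatment on this probe. Its other kept probes went the other way, with all DG75 arrays below all Raji arrays under either treatment. After TPCK they read 9.76, 9.71 and 9.98, and 10.50, 10.40 and 9.89, in Raji. In DG75 they read 8.74, 9.34 and 9.64, and 9.36, 9.32 and 9.12.

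The rest of the pathway was described from 3 further lists. Of 30 genes for p53 and its regulators, 26 were tested, and none was called by limma in any of the 6 comparisons that involve a treatment, where 1 to 8 had an unadjusted p under 0.05. The shares over all genes at that p were 6.61% to 18.9%. Of the 26, 7 were lower and 0 higher without overlap in Raji after Bay-11, where 14.2% and 16.8% of all genes were. MDM4, the partner of MDM2 that masks the activation domain of p53, had -0.57 ± 0.38 in Raji (adjusted p = 0.435 with limma) and -0.98 ± 0.38 in DG75 after Bay-11 (adjusted p = 0.195 with limma). Between the untreated lines 9 of the 26 were higher in DG75 and 2 lower, in all 42.3% of the list against 38.9% of all genes (20.7% higher, 18.2% lower). Among them were TP53BP2, which steers p53 towards death genes, at 1.96 ± 0.24, the deubiquitinase gene USP7 at 1.05 ± 0.16, and the DNA damage kinase genes PRKDC at -1.11 ± 0.12 and ATM at -0.95 ± 0.13.

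Of 41 further p53 targets 26 were tested, and 1 was called after treatment, in both Raji comparisons. This is 3.85% of the list in each, against 1.51% of all genes after Bay-11 and 0.439% after TPCK. PANK1, a pantothenate kinase that starts coenzyme A synthesis, rose in Raji after Bay-11 by 0.59 ± 0.13 (adjusted p = 0.0416 with limma) and after TPCK by 0.65 ± 0.13 (adjusted p = 0.0425 with limma), both against the same controls. The median of these 26 after Bay-11 in Raji was -0.09. ATF3, a stress-induced transcription factor, had -0.69 ± 0.21 in Raji (adjusted p = 0.107 with limma) and 0.31 ± 0.21 in DG75 after Bay-11 (adjusted p = 0.438 with limma). Between the untreated lines 5 of the 26 were higher in DG75 and 7 lower, in all 46.2% of the list against the same 38.9% of all genes. They included the second TRAIL receptor gene TNFRSF10A at 1.66 ± 0.21, the apoptosome gene APAF1 at 1.48 ± 0.18, the cytochrome oxidase assembly gene SCO2 at -1.27 ± 0.13 and the chaperone gene HSPA4L at 1.25 ± 0.26.

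Cell cycle genes that are lowered downstream of p21 formed the third list, with 20 of 21 tested. CDC25C, the phosphatase that activates cyclin-dependent kinase 1, fell in Raji after Bay-11 by 0.63 ± 0.14 on the log2 scale (adjusted p = 0.0416 with limma), and no other member was called after treatment. This is 5% of the list, against 1.51% of all genes after Bay-11 in Raji. There 6 of the 20 were lower and 2 higher without overlap, where 14.2% and 16.8% of all genes were. The median of the 20 was -0.03 in that comparison, where CDKN1A fell. In untreated DG75 7 of the 20 were higher than in Raji and 2 lower, 45% of the list against 38.9% of all genes, with PLK4, the kinase of centriole duplication, at 0.94 ± 0.14, the cyclin genes CCNB1 at 0.75 ± 0.15 and CCNA2 at 0.69 ± 0.11, and the spindle checkpoint gene BUB1B at 0.66 ± 0.23.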

How the data were processed

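RNA of 18 samples, 3 in each of 6 groups, was hybridised to bead arrays, per the labels' protocols after Trizol isolation, column clean-up with DNase and biotin labelling. The deposited raw table holds log2 values of raw bead signal for 49576 probes that were neither background-subtracted nor normalized, and a detection p-value for each, per the file headers. The software used is not given in the sources used here. Columns were tied to groups by line and treatment, and 0 columns were left unused.

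Signals were corrected with normexp from the detection p-values (offset 16) and quantile normalized by the function neqc (limma 3.58.1, R 4.3.3). Probes with detection p under 0.01 on at least 3 arrays were kept (17652). Symbols came from the platform annotation, in which 17109 probes have 1 symbol, 3 several and 32467 probes of the table none. The brightest kept probe stood for each of 10697 genes. A fit of 6 group means over 18 arrays was moderated with eBayes (12 residual and 4.26 prior degrees of freedom). The fit was tested on simulated data. P-values were adjusted by Benjamini-Hochberg over all genes.

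A second table deposited by the authors, of log2 values that carry replicate numbers, was an alternative source where the columns compared are on 1 scale. Its centring is unknown, and its Raji columns hold blanks. Raji columns of TPCK and Bay-11 with the same number deviated together from their group means, with correlations of 0.14, 0.128 and 0.238 over 7990 genes, so the numbers were taken to pair those samples. This pairing comes from the values and not from the labels.

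The 31 targets were all accounted for. Values on every array are given for targets called in any comparison and for MDM2 and CDKN1A, and up to 4 called genes of each pathway list are named, with MDM4 and ATF3 always; 1 further gene of that rule is not reported here. PPM1D, TP53I3, EI24, RRM2B, CCNG1, PERP, GDF15 and SESN2 were described after their values had been seen. The members, lists, rules and tests were chosen with earlier results of these data known.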

Additional observations from a re-analysis of the deposited data

How the results depend on the processing

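The number of p53 targets called after Bay-11 in Raji was 5 as reported, 3 with each array centred on its median, 0 with no normalization between arrays, 11 with arrays weighted by quality (1 higher, 10 lower), 9 without arrays 7 and 10 (1 higher, 8 lower, chosen after seeing the data), and 8 in the deposited processed table with the replicate number as a block (2 higher, TP53I3 and PLXNB2, and 6 lower) against 7 without it (the same 2 higher, 5 lower). After TPCK in Raji it was 2 as reported, 0 with median centring, 0 without the filter on dim probes, 0 with only the compared groups in the fit, 0 in the deposited table with or without the replicate block or on complete rows, 4 with weighted arrays, 3 without arrays 7 and 10, and 5 with no normalization, all of them higher. Over all genes, Raji Bay-11 had 161 calls as reported, 35 with median centring and 640 without normalization. There were 1132 with weighted arrays and 506 without arrays 7 and 10. The deposited table had 1692 of 7990 genes with the block and 1672 of 8582 without, testing 23 and 24 targets. Raji TPCK had 47 as reported, 39 with median centring, 139 with weighted arrays and 67 without arrays 7 and 10. Without normalization TPCK had 5058, of which 5053 were higher. Leaving out 1 array gave 3 to 5 for Raji Bay-11, 0 to 1 for Raji TPCK, 0 to 2 for DG75 Bay-11, 0 to 1 for DG75 TPCK against Bay-11 and 8 to 10 for the untreated lines. For DG75 Bay-11 the 2 were TP53I3 and CD82, called without array 12. That fit called 1048 of 10675 genes, against 66 of 10697 as reported and 27 of 10629 without array 10. Weighted arrays gave 1 (CD82) for DG75 Bay-11, 3 for Raji TPCK against Bay-11 and 1 (CDKN1A) for the difference of the Bay-11 responses, which also had 1 without background correction. Over all genes these weighted fits called 157, 686 and 4, and the fit without background correction called 2. For the untreated lines no normalization gave 5 against 11, where all genes gave 2596 against 4163. DG75 TPCK against control and the difference of the TPCK responses gave 0 under every alternative run. Among the called and always-named genes recomputed singly, signs turned in 4 cases: without normalization CDKN1A, GADD45A and AEN after TPCK in Raji stood at 0.0623, 0.0144 and 0.25, and with the mean of all kept probes ZMAT3 in the untreated lines stood at -0.21. Over all 27 targets, no normalization turned 20 of 20 negative values positive after TPCK in Raji, 6 of 18 after Bay-11 in Raji, 6 of 13 after Bay-11 in DG75 and 12 of 15 after TPCK in DG75. Without normalization the median of all genes was 0.39 for Raji Bay-11, 0.66 for Raji TPCK, 0.35 for DG75 Bay-11 and 0.39 for DG75 TPCK, and the medians of the targets, 0.11, 0.49, 0.29 and 0.33, lay below them. For the Raji pairing of TPCK with Bay-11 the block left the count at 0, and each column correlated best with its own number. In the other comparisons same-numbered columns share only a number, with correlations from -0.165 to 0.104, and a block could not be fitted where columns differ in scale. The cause of these shifts was not tested. Dim probes limit FAS in DG75, PERP, GDF15 and SESN2 in both lines and MDM2 in Raji, whose signals lie at or near the detection limit. SESN2 was detected on 11 of 18 arrays. Its changes were 0.25 after Bay-11 and 0.03 after TPCK in Raji, and -0.06 and -0.25 in DG75, none of them called. PERP was undetected on all Raji arrays.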
